A study of Homo sapiens with 6 samples.

Results

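The genes described here encode the proteasome, its activators, its inhibitor protein PI31 and the chaperones that assemble it, measured in 786-O cells with and without RNA interference against ERCC6L. Their values come from the probe sets whose only gene symbol is PSMA, PSMB, PSMC, PSMD, PSME, PSMF or PSMG followed by a number, which gave 108 of 44988 single-symbol probe sets and 44 of 18132 genes. The family has 48 such genes in the list used, and PSMA6, PSMC5, PSMD7 and PSMD13 were not analysed here. 786-O is an established human cell line, derived from renal cell carcinoma and grown in culture. The comparison was of 3 arrays from cells given a lentiviral negative control short hairpin RNA (shNC) with 3 arrays from cells given a lentiviral shRNA against ERCC6L (shERCC6L), so both groups carried a lentiviral hairpin. The labels give neither the number of hairpins, nor the time after infection, nor whether the cells were clones or pools. They also leave unsaid whether replicates were separate cultures, so the p-values rest on a spread between samples that may be technical.

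The proteasome is the protease that degrades ubiquitin-tagged proteins in the cytosol and nucleus. Its barrel, the 20S core, stacks rings of alpha subunits (PSMA genes) around rings of beta subunits (PSMB genes), and PSMB5, PSMB6 and PSMB7 carry the proteolytic sites. The 19S regulatory particle caps the barrel: a base with ATPases (PSMC genes) unfolds the substrate, and a lid (most PSMD genes) removes its ubiquitin chain. Interferon-induced PSMB8, PSMB9 and PSMB10 replace the constitutive catalytic subunits in the immunoproteasome, and the PA28 activator (PSME1 and PSME2) opens the barrel without the 19S cap, both known for making peptides for antigen presentation. Because degradation of cyclins and securin by the proteasome drives the exit from mitosis, the complex acts in the same phase of the cell cycle in which ERCC6L, a DNA translocase on anaphase threads, is known to act.

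ERCC6L itself had signals of 239.9, 244.3 and 261.4 in shNC and of 97.59, 97.49 and 97.83 in shERCC6L. It fell by 1.22 ± 0.04 on the log2 scale (SE, n = 3 per group; limma adjusted p = 1.6e-07). Array medians ran from 60.04 to 61.56, log2 values of arrays correlated at 0.9987 to 0.999 inside a group and at 0.9932 to 0.9939 across the groups, and the 3' to 5' ratio of the GAPDH control probe sets was 0.954 to 0.968 in shNC and 0.952 to 0.965 in shERCC6L. Of 10 listed markers of a renal carcinoma line 9 were measured, with a summed signal of 25680 to 25990 in shNC and 24140 to 24770 in shERCC6L. Higher in shERCC6L were 2 of them (22.2%) and lower were 3 (33.3%), against 18.2% and 13.4% of all genes. Among genes with a mean at least at the median gene's, to which all 9 belong, these shares were 32.8% and 19.6%. PAX8, a renal lineage factor, rose from a mean signal of 392.3 to 502.1, and KRT18 rose by 0.13 on the log2 scale. NNMT fell by 0.66, from 3049 to 1922, EPAS1 by 0.36 and CDH2 by 0.26. VIM, the gene of vimentin, stood at 14930 in shNC and 14880 in shERCC6L. Markers of other cells were dim, with summed signals of 169 to 180.4 in shNC and 148.1 to 152.2 in shERCC6L over 6 fibroblast genes, 207.2 to 209 and 200.6 to 212.3 over 5 leukocyte genes, and 244.2 to 251.1 and 232.6 to 244.7 over 6 endothelial genes. Of those 17 genes 1, the collagen gene COL1A1, passed the test, as lower. No listed marker was at 0, since the values never reach it, but PTPRC, the pan-leukocyte antigen, stood at 7.31 and 7.21, close to the array's median background probe of 8.14 to 8.41. The leukocyte gene TYROBP was well above that probe, at 153 in shNC and 150.5 in shERCC6L, and made up most of the leukocyte sum. In bulk RNA a change in every cell and a change in the share of cells that express a gene cannot be told apart.

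Promoters of the members are shown for the 19S genes that rose most and for the inducible subunits on chromosome 6, as 300 bases from RefSeq (GRCh38.p14), 250 before and 50 after the gene's start. Of the 44 genes, 38 had such a window in the table; PSMA7, PSMB1, PSMB6, PSMB7, PSMD4 and PSMG3 had none in the table used. Motifs were searched on both strands. In the lines for PSMD10, PSMD2, PSMC4 and PSMD12 the capitals mark the ETS core CCGGAA, read on either strand as CCGGAA or TTCCGG.
PSMD10, chrX:108091493-108091792, minus strand: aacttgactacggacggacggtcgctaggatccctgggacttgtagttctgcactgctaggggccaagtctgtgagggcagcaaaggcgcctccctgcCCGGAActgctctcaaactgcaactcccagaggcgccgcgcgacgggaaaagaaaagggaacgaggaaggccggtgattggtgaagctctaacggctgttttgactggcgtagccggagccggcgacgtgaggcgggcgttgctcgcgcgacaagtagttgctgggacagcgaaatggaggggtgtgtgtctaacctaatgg
PSMD2, chr3:184298991-184299290, plus strand: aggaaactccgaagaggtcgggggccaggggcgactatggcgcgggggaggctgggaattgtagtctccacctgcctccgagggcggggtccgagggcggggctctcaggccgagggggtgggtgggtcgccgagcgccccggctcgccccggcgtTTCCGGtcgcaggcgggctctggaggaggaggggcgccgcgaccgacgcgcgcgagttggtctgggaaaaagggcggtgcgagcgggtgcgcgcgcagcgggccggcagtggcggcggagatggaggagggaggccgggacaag
PSMC4, chr19:39970915-39971214, plus strand: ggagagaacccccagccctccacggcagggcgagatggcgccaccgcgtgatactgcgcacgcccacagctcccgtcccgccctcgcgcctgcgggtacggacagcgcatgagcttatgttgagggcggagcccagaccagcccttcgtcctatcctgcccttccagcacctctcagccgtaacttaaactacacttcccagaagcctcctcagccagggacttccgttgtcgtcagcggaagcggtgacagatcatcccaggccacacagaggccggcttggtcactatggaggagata
PSMD12, chr17:67366528-67366827, minus strand: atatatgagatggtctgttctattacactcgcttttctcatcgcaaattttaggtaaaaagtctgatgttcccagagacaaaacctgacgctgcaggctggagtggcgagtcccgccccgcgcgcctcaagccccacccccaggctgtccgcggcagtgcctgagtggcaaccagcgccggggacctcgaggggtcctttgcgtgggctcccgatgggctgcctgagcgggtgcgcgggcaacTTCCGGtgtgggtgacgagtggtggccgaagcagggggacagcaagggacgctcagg
The windows shown for PSMD10, PSMD2 and PSMD12 each hold 1 ETS core and that of PSMC4 holds 0. PSMD2 has another window, at chr3:184300331-184300630 and not shown, which holds 0. In the next lines the capitals mark the interferon-responsive GAS pattern TTCNNNGAA, which is its own reverse complement.
PSMB9, chr6:32853942-32854241, plus strand: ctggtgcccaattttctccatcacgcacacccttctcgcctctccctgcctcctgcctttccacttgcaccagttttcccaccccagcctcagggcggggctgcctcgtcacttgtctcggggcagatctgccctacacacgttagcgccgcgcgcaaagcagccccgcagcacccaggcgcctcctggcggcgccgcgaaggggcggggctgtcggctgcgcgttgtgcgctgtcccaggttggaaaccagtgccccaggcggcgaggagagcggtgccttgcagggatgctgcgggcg
PSMB8, chr6:32844630-32844929, minus strand: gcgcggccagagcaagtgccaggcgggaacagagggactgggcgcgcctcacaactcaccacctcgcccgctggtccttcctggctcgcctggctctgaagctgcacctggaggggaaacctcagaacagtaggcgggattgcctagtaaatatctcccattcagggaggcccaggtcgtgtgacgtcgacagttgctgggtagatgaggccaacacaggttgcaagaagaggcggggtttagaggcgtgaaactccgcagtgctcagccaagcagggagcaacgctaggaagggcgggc
PSMB8, chr6:32843998-32844297, minus strand: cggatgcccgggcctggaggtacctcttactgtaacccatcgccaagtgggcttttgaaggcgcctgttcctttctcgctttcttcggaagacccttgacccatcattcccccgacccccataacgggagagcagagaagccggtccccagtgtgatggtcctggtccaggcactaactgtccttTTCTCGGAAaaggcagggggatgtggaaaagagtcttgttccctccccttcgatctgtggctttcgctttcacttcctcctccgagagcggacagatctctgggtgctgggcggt
PSMB8 has a pair of annotated starts, and the GAS pattern stands once in the window of the downstream start, in neither the upstream window nor the PSMB9 window. It also stands once in the PSMC4 window, where it is not marked, and once in the PSMD2 window that is not shown. The other motifs were the antioxidant response element core TGANNNNGC, the CCAAT box CCAAT, the GC box GGGCGG and the TATA box TATAAA. Counting a gene once, the ETS core was in 47.4% of member genes (18 of 38) and in 17.2% of all 35116 promoters, and the antioxidant core in 65.8% (25 of 38) and 41.8%. The CCAAT box was in 47.4% (18) and 34.6%, the GC box in 65.8% (25) and 45.0%, the GAS pattern in 21.1% (8) and 7.66%, and the TATA box in 10.5% (4) and 11.5%. The 38 genes have 45 windows between them, and a gene with more than 1 has more chances of a match. The ETS core was in 10 of the 17 member genes that rose and in 8 of the 21 that did not pass, and the antioxidant core in 10 of 17 and 15 of 21. The GAS pattern was in 3 of 17 and 5 of 21, the CCAAT box in 8 and 10, the GC box in 12 and 13, and the TATA box in 0 and 4. The short motifs can overlap each other, and a match describes letters in the window only.

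Of the 44 proteasome genes 19 rose, 1 fell and 24 did not pass (limma, Benjamini-Hochberg adjustment over all 18132 genes, threshold 0.05). Among all genes 31.6% passed, 18.2% as higher and 13.4% as lower, and among the 9066 genes with a mean at least at the median gene's, where 42 of the 44 members lie, 32.8% rose and 19.6% fell. The members' 43.2% risen and 2.27% fallen thus stand above the share of risen genes and below that of fallen genes in both. The median log2 fold change of the members was 0.083, against -0.011 over all genes and 0.036 over that brighter part of the genes, and 37 of the 44 (84.1%) had a value above 0, as did 45.2% of all genes and 57.3% of the brighter ones. All changes were small. The largest was 1.35-fold, and 0 of the 44 passed with a change of at least 1.5-fold, as 2.08% of all genes did. The mean of log2(signal + 16) over the members was 10.049 to 10.063 in shNC and 10.146 to 10.179 in shERCC6L. Group ranges were apart, with no overlap, for 24 of the 44 members as higher and 1 as lower, against 23.1% and 20.3% of all genes (43.4% in either direction). Among the 9066 brighter genes, where 42 of the 44 members lie, they were apart for 3623 as higher and 2226 as lower.

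**Figure D1:**
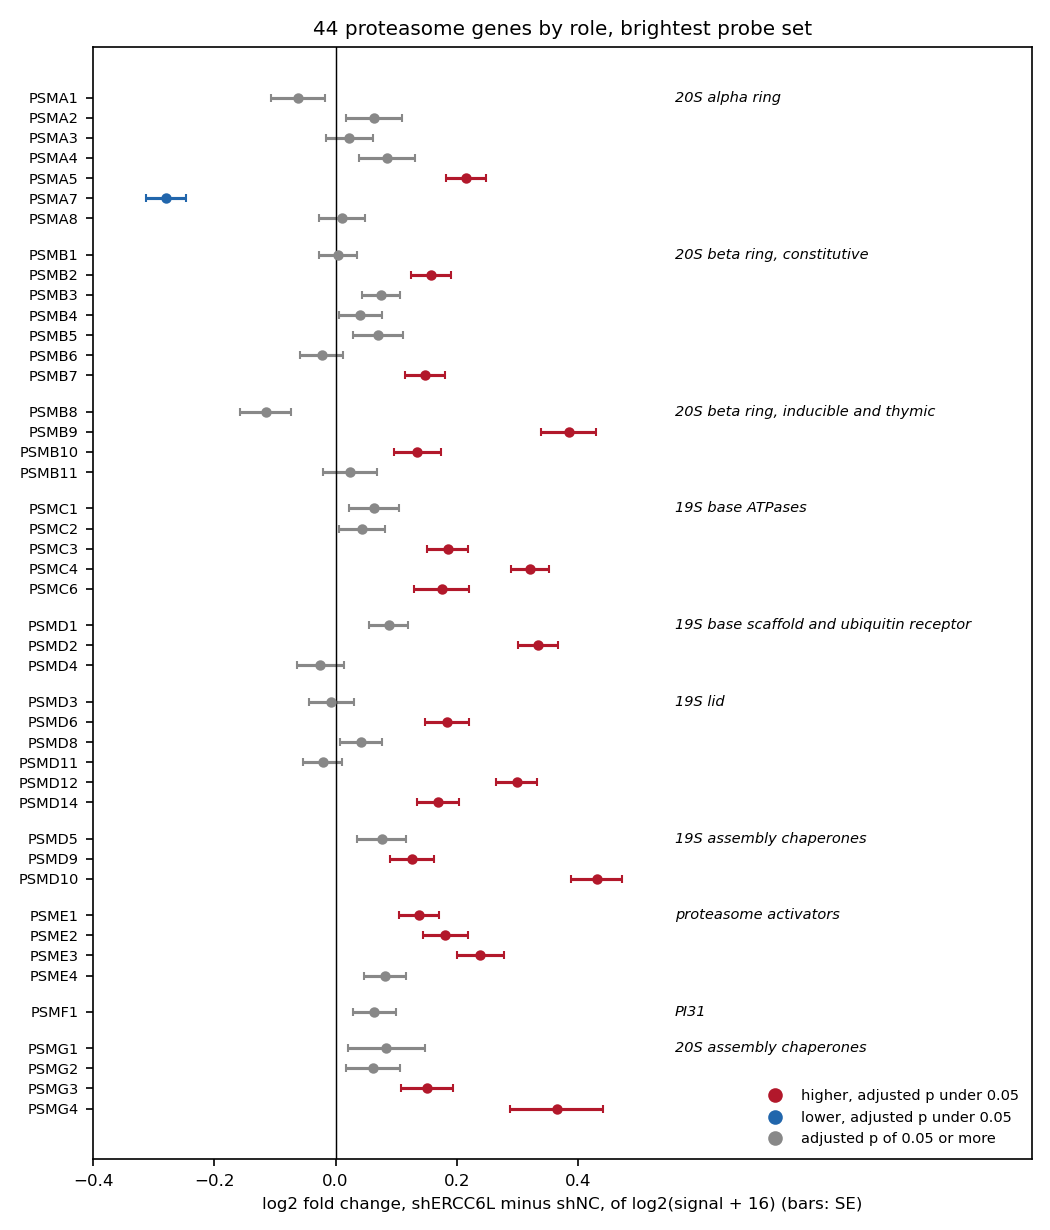
Log2 fold change (shERCC6L minus shNC, on log2(signal + 16)) of the 44 proteasome genes by role, each on its brightest probe set; points are estimates from 3 arrays per group and bars are the SE. The 19 red genes rose, PSMA7 in blue fell by 0.28, and PSMD10, at 0.43, lies farthest to the right.

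Of the 19 rises, 15 passed with each array left out in turn and 13 in all 15 alternative analyses, as did the fall of PSMA7. The calls that ended when an array was left out were those of PSMB10, PSMC6, PSMD9 and PSMG3, all with log2 changes under 0.2. They were near the threshold with all arrays (limma adjusted p of 0.017 to 0.027), and each ended with any of 4 or 5 arrays left out. PSMB10 missed the threshold without shNC replicate 2 or 3 or shERCC6L replicate 1 or 2 (limma adjusted p of 0.066 to 0.089). PSMC6 missed it without shNC replicate 1 or 3 or shERCC6L replicate 2 or 3 (0.056 to 0.066). PSMD9 missed it without replicate 1 or 2 of either group (0.053 to 0.089), and PSMG3 without any 1 of the shNC replicates or shERCC6L replicate 1 or 2 (0.054 to 0.092). Quantile normalization also ended the calls of PSMB10 (adjusted p = 0.12), PSMD9 (0.15) and PSMG3 (0.089). The median of the members was 0.056 with quantile normalization and 0.091 with median centring.

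**Figure D2:**
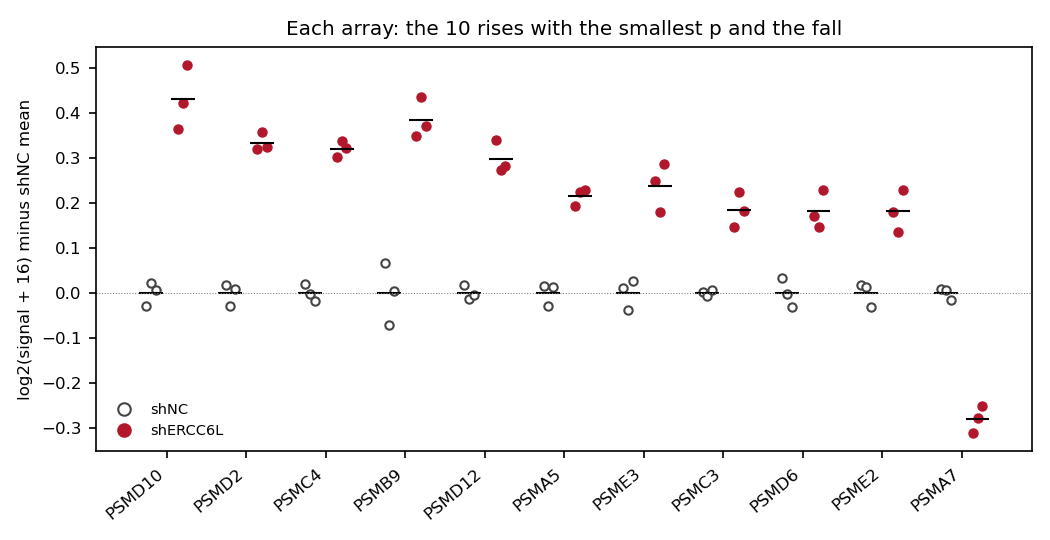
Log2(signal + 16) on each array minus the shNC mean of the gene, for the 10 member genes that rose with the smallest p and for the 1 that fell; open circles are shNC arrays, filled circles shERCC6L arrays, and lines are group means (n = 3). In every gene shown the groups do not overlap, and PSMD10 has the widest spread among the shERCC6L arrays of the first 3 genes.

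The assembly chaperones of the 19S particle held the largest rise. PSMD10, or gankyrin, helps to assemble the base ATPases and is known as an oncoprotein that binds RB1 and MDM2 (gene at chrX:108084207-108091542). Its signal was 895.2, 927.2 and 918.1 in shNC and 1181, 1230 and 1304 in shERCC6L. All 3 shERCC6L arrays were well above all 3 shNC arrays. On the log2 scale it rose by 0.43 ± 0.04 (SE over 3 arrays a group; limma adjusted p = 7e-05), and the other PSMD10 probe set rose by 0.32. PSMD9, a second chaperone of the base, rose by 0.13 ± 0.04 on its brighter probe set, from 515.1 ± 14.7 to 563.4 ± 9.42 (SD), and by 0.39 on a dimmer one with means of 53.83 and 75.27 (0.256 with both averaged). PSMD5, the other PSM gene among the base chaperones, was at 462.4 ± 22 and 487.9 ± 1.94 and did not pass (adjusted p = 0.2).

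In the base, 4 of 8 measured genes rose and 0 fell, against 18.2% and 13.4% of all genes and 32.8% and 19.6% of the brighter genes. PSMD2, the scaffold subunit that docks ubiquitin shuttles, read 2478, 2399 and 2462 in shNC and 3060, 3140 and 3067 in shERCC6L (gene at chr3:184299241-184309050). The spread within each group was a small part of the gap between them. Its log2 fold change was 0.33 ± 0.03 (SE; limma adjusted p = 7.3e-05), and its 3 probe sets gave 0.33 to 0.34. PSMC4, the ATPase that PSMD10 binds, read 342.2, 336.9 and 332.9 in shNC and 419.6, 430.4 and 426 in shERCC6L (gene at chr19:39971165-39981764). The lowest shERCC6L array again lay above the highest shNC array, with a log2 fold change of 0.32 ± 0.03 (limma adjusted p = 8.2e-05). PSMC3, a further ATPase gene, read 1317, 1309 and 1321 in shNC and 1458, 1540 and 1496 in shERCC6L. It rose by 0.19 ± 0.03, and the ATPase gene PSMC6 rose by 0.17 ± 0.05, from 1727 ± 69.7 to 1952 ± 91.5 (SD). A second PSMC6 probe set, at signals of 7.948 and 7.674, was at -0.02, and averaged with it PSMC6 was at 0.079. The ATPase genes PSMC1 and PSMC2, at 0.06 and 0.04, did not pass. PSMD1, the second scaffold subunit, was at 0.09 ± 0.03 with groups that did not overlap and did not pass (adjusted p = 0.068). It passed when the dimmer genes were left out, with probe sets averaged, with an intensity trend and with a pseudocount of 64 (adjusted p of 0.011 to 0.039). PSMD4, the ubiquitin receptor, was at -0.02.

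In the lid, 3 of 6 measured genes rose and 0 fell. PSMD12, a scaffold subunit of the lid, read 1001, 979.6 and 986.5 in shNC and 1256, 1198 and 1207 in shERCC6L (gene at chr17:67337916-67366577). Its groups stood far apart, with a log2 fold change of 0.30 ± 0.03 (SE; limma adjusted p = 0.00018), and its 4 probe sets rose by 0.13 to 0.30. PSMD14, the metalloprotease that cuts the ubiquitin chain from the substrate, rose from 1381 ± 8.84 to 1555 ± 48.4 (SD), by 0.17 ± 0.04. Its other probe set was at 0.09, with SDs of 134 and 133, and with the probe sets averaged the call ended (adjusted p = 0.087). PSMD6 read 1060, 1035 and 1013 in shNC and 1169, 1149 and 1217 in shERCC6L, a rise of 0.18 ± 0.04. The lid genes PSMD3, PSMD8 and PSMD11 were at -0.01, 0.04 and -0.02 and did not pass, with 95% intervals that lay between -0.09 and 0.12. Taking base and lid together, 7 of 14 subunit genes of the 19S particle rose (50%) and 0 fell, with a median of 0.128. All 14 belong to the brighter genes, of which 32.8% rose and 19.6% fell, against 18.2% and 13.4% of all genes.

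In the constitutive 20S core, 3 of 14 genes rose and 1 fell, with a median of 0.052. The share that rose, 21.4%, is near the 18.2% of all genes and below the 32.8% of the brighter genes, to which all of these but PSMA8 belong. The difference in these shares between the 20S core and the 19S particle was not tested. PSMA5, an alpha subunit, read 2203, 2135 and 2198 in shNC and 2494, 2549 and 2555 in shERCC6L. The groups were clear of each other, and the log2 fold change was 0.22 ± 0.03 (SE; limma adjusted p = 0.00098). PSMA7, also an alpha subunit, was the only member gene that fell. It read 2945, 2937 and 2892 in shNC and 2354, 2408 and 2455 in shERCC6L (gene at chr20:62136733-62143394). Each shERCC6L array was below every shNC array, and the log2 fold change was -0.28 ± 0.03 (adjusted p = 0.00022; -0.30 to -0.27 over all alternatives). PSMA7 is read by 1 probe set. PSMA1, PSMA2, PSMA3 and PSMA4 lay between -0.06 and 0.08 and did not pass. PSMA8, which replaces PSMA7 in the testis, read 9.223, 7.603 and 7.579 in shNC and 8.431, 8.475 and 8.032 in shERCC6L, about as dim as the median background probe.

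Among the constitutive beta subunits PSMB2 rose by 0.16 ± 0.03, from 2580 ± 49.1 to 2877 ± 32.7 (SD), on all 3 of its probe sets. The trypsin-like catalytic subunit PSMB7 read 2329, 2289 and 2347 in shNC and 2545, 2621 and 2559 in shERCC6L, a log2 fold change of 0.15 ± 0.03 (limma adjusted p = 0.0073). Its 3 bright probe sets rose, and the call ended when they were averaged with a dim pair at signals near 30 (0.07, adjusted p = 0.058). The chymotrypsin-like subunit PSMB5 read 1687, 1557 and 1605 in shNC and 1685, 1757 and 1650 in shERCC6L. These groups overlapped, the log2 fold change of 0.07 ± 0.04 did not pass (95% interval -0.02 to 0.17), and 0 of its 5 probe sets passed. The caspase-like subunit PSMB6 read 1761, 1759 and 1750 in shNC and 1679, 1720 and 1788 in shERCC6L, with groups that overlapped and a log2 fold change of -0.02 ± 0.04. The structural subunits PSMB1, PSMB3 and PSMB4 were at 0.00, 0.07 and 0.04 and did not pass, though PSMB3 passed with probe sets averaged, with an intensity trend and with a pseudocount of 64 (adjusted p of 0.0234 to 0.0491).

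Of the inducible subunits PSMB9 and PSMB10 rose and PSMB8 did not pass. PSMB9, or LMP2, read 1133, 1027 and 1084 in shNC and 1380, 1467 and 1402 in shERCC6L (gene at chr6:32854192-32859851). Every shERCC6L array exceeded every shNC array, the log2 fold change was 0.38 ± 0.04 (SE; limma adjusted p = 0.00018), and all 3 probe sets rose, by 0.16 to 0.38. PSMB8, or LMP7, whose gene lies in the same cluster (chr6:32840717-32844679), read 1219, 1150 and 1255 in shNC and 1090, 1151 and 1100 in shERCC6L. Its groups overlapped by a single pair of arrays, and the log2 fold change of -0.12 ± 0.04 did not pass (adjusted p = 0.07). It passed as lower in 5 alternatives, with an adjusted p of 0.012 to 0.047: quantile normalization, dimmer genes left out, averaged probe sets, the intensity trend, and without shNC replicate 2. PSMB10, or MECL1, on chromosome 16, read 633.2, 605.9 and 622.8 in shNC and 703.7, 691.2 and 654.7 in shERCC6L. Its groups were apart by little, and it rose by 0.13 ± 0.04 (adjusted p = 0.027), with all 3 probe sets called. The thymic subunit PSMB11 read 12.71, 11.98 and 13.01 in shNC and 14.48, 13.27 and 11.45 in shERCC6L, too dim to compare.

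Within arrays each inducible subunit was set against the constitutive one it replaces. The log2 value of PSMB9 minus that of PSMB6 was -0.63, -0.77 and -0.68 in shNC and -0.28, -0.23 and -0.35 in shERCC6L, a shift of 0.41 towards PSMB9. PSMB8 minus PSMB5 went from -0.41 ± 0.06 to -0.60 ± 0.02 (SD, n = 3 per group), a shift of -0.19 the other way. PSMB10 minus PSMB7 was at -1.88 ± 0.02 and -1.89 ± 0.06, a shift of -0.01. An exact 2-sided permutation test over the arrays gave p = 0.1 for the first and second pair, the smallest that 3 against 3 arrays allow, and 0.8 for the third (0.15, 0.15 and 0.8 after Benjamini-Hochberg adjustment over the 3 pairs). A within-array difference is little moved by scaling between arrays. Levels of different probe sets cannot be compared, so only its shift between groups is read.

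**Figure D3:**
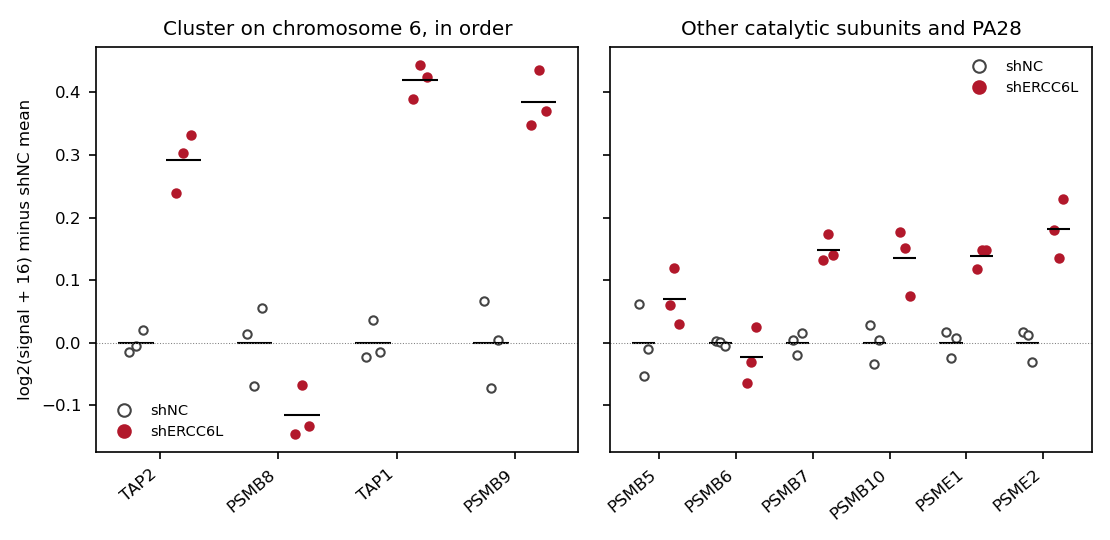
Log2(signal + 16) on each array minus the shNC mean of the gene; left, TAP2, PSMB8, TAP1 and PSMB9 in their order along chromosome 6; right, the constitutive catalytic subunits, PSMB10 and the PA28 genes. Open circles are shNC and filled circles shERCC6L arrays, lines are means (n = 3). PSMB8 is the gene of the cluster whose shERCC6L arrays lie below its shNC mean, while the neighbours rose by 0.29 to 0.42.

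PSMB8 and PSMB9 alternate along chromosome 6 with the genes of the transporter that carries proteasome peptides into the endoplasmic reticulum. TAP1 (chr6:32845209-32853704) lies between them, and read 304.7, 318.2 and 306.6 in shNC and 410.6, 426.9 and 421.4 in shERCC6L. It rose by 0.42 ± 0.03 (SE, n = 3 per group; limma adjusted p = 2.8e-05), and TAP2 (chr6:32821831-32838739), from 140.6 ± 1.96 to 175.8 ± 6.35 (SD), by 0.29 ± 0.04. Of 18 measured genes of antigen processing and the interferon-gamma axis 7 were higher and 3 lower (38.9% and 16.7%), with a median of 0.031. Among the brighter genes, to which 15 of the 18 belong, these shares were 32.8% and 19.6%, so the list is near its background. HLA-F, a class I gene whose probe sets may also read its close paralogs, rose by 0.76 ± 0.03, or by 0.259 with its probe sets averaged, and the kinase gene JAK1, which signals for interferon receptors, fell by 0.23 ± 0.04. B2M and NLRC5, the light chain and the transactivator of class I molecules, were at 0.00 and 0.01 and did not pass. Of 24 genes of the type I interferon response 9 were higher and 1 lower, with a median of 0.096. These are 37.5% and 4.17%, against 18.2% and 13.4% of all genes and 32.8% and 19.6% of the brighter genes. The 24 lie on both sides of the median level, so neither background matches the list. The share that rose is above that of all genes and near that of the brighter genes, and the share that fell is below both. IFI6, ISG15, IFI44 and the RNA sensor gene RIGI rose by 0.35, 0.31, 0.30 and 0.32 (IFI44 by 0.134 with probe sets averaged). The summed signal of these 24 genes ran from 4057 to 4248 over the shNC arrays and from 4612 to 4678 over the shERCC6L arrays. Its part in the rises of PSMB9, PSMB10, PSME1 and PSME2 was not tested.

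Of the 4 activator genes 3 rose (75%), against 18.2% of all genes and 32.8% of the brighter genes, to which all 4 belong. The PA28 genes PSME1 and PSME2 are close neighbours on chromosome 14 (chr14:24136194-24138962 and chr14:24143365-24146610). PSME1 read 3040, 2954 and 3020 in shNC and 3263, 3332 and 3330 in shERCC6L, and PSME2 read 1134, 1130 and 1096 and then 1271, 1231 and 1316. Neither gene's groups overlapped. Their log2 fold changes were 0.14 ± 0.03 and 0.18 ± 0.04 (SE; limma adjusted p = 0.01 and 0.005). PSME3, which forms the nuclear activator PA28-gamma, read 300.2, 289.4 and 303.5 in shNC and 356.9, 339.5 and 366.5 in shERCC6L. The arrays of the groups were apart, and it rose by 0.24 ± 0.04 (adjusted p = 0.0015), or by 0.158 with its 3 probe sets averaged. PSME4, the large single-chain activator known for degrading acetylated histones, read 498.9, 516.4 and 508.4 in shNC and 522, 547.9 and 546.4 in shERCC6L. Its groups did not overlap, yet the log2 fold change of 0.08 ± 0.04 did not pass (adjusted p = 0.11), and 1 of its 6 probe sets did.

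The 20S core is assembled by PSMG1 with PSMG2 and PSMG3 with PSMG4. PSMG4 rose by 0.37 ± 0.08 (SE; limma adjusted p = 0.0057), from 560.7, 492.8 and 588.5 to 710.9, 774.2 and 643.8. Its SE was the largest of the member genes that rose, but the lowest shERCC6L array still lay above the highest shNC array. The second PSMG4 probe set, nearly as bright, was tighter, at 542.6 ± 8.01 and 698 ± 13.7 (SD), and rose by 0.35, and 5 of its 6 probe sets rose. PSMG3 rose by 0.15 ± 0.04, from 232.4 ± 2.22 to 260 ± 14.6. PSMG1 and PSMG2 were at 0.08 ± 0.06 and 0.06 ± 0.05 and did not pass. PSMF1, or PI31, which inhibits the core in the test tube, was at 0.06 ± 0.03 on its brightest probe set and did not pass (adjusted p = 0.21).

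Over all probe sets, 47 of the 108 rose, 2 fell and 59 did not pass, against 17.0% and 12.0% of the 44988 single-symbol probe sets. That background holds probe sets of every signal level, and by gene rises were more common among the brighter genes (32.8%) than among all (18.2%). Of the 32 genes with more than 1 probe set, 9 had every probe set called in the same direction, and 0 had calls in both directions. PSMF1 and PSMA1 were read differently by their probe sets. The 2 brightest PSMF1 probe sets were at 0.06 and 0.08, while 3 dimmer ones rose by 0.30, 0.34 and 0.20, and with probe sets averaged PSMF1 passed at 0.175 (adjusted p = 0.00055). The bright PSMA1 probe set was at -0.06 ± 0.05, with signals of 1977 ± 108 and 1892 ± 48.6 (SD), and a dim one rose by 0.67 ± 0.05, from 36.25 ± 1.86 to 67.16 ± 4.15. Averaged, they passed at 0.304 (limma adjusted p = 3e-05). PSMC2 had a dim probe set that fell by 0.18, from 79.57 to 68.2. Of the 108 probe sets 25 have an identifier ending in x_at, which marks probes that can read other transcripts, and 7 of these stand for their gene here (PSMA3, PSMB1, PSMB4, PSMC1, PSMC4, PSMD4 and PSMF1).

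**Figure D4:**
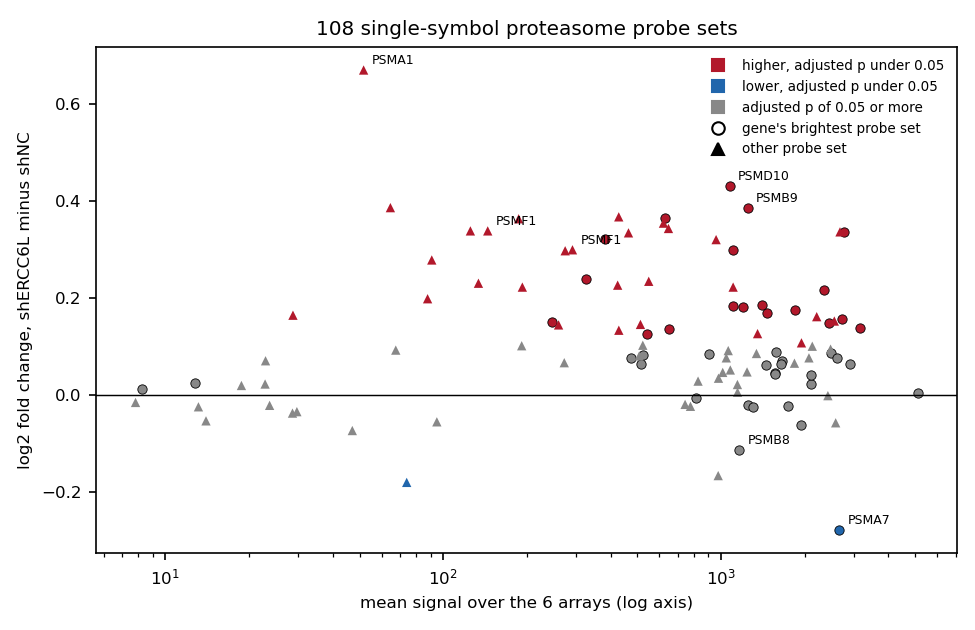
Log2 fold change (shERCC6L minus shNC) against the mean signal over the 6 arrays (log axis) for the 108 proteasome probe sets; circles are the brightest probe set of a gene and triangles the others. Of the points, 47 are red (higher) and 2 blue (lower), and the highest triangle is the dim PSMA1 probe set at 0.67.

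Other genes of the pathway were counted in the same fit. Of 12 measured genes for further subunits, assembly factors and enzymes bound to the proteasome, 7 rose and 1 fell, with a median of 0.138. These are 58.3% and 8.33%, against 18.2% and 13.4% of all genes. All 12 belong to the brighter genes, of which 32.8% rose and 19.6% fell. PITHD1, which is found with the proteasome, read 617.3, 582.2 and 600.4 in shNC and 779, 793.5 and 784.7 in shERCC6L and rose by 0.38 ± 0.04 (SE; limma adjusted p = 4.8e-05). The ubiquitin ligase gene UBE3C and the deubiquitinase gene UCHL5 rose by 0.24 each (UBE3C by 0.089 with probe sets averaged), and PAAF1, a further base chaperone, by 0.21. The core maturation factor POMP rose by 0.13 ± 0.04, and the adaptor gene ECPAS was the member of this list that fell, by 0.16 ± 0.04.

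Of 14 measured genes for ubiquitin, its activating enzymes and shuttle receptors 3 were higher and 2 lower, with a median of -0.013. Their shares of 21.4% and 14.3% are near the 18.2% and 13.4% of all genes. They are below the 32.8% and 19.6% of the brighter genes, to which all of these but DDI1 and DDI2 belong. UBXN1 and the activating enzyme gene UBA1 rose by 0.23 and 0.14. With probe sets averaged UBXN1 was at 0.112 and UBA1, at 0.061, no longer passed (limma adjusted p = 0.104). The shuttle genes UBQLN4 and UBQLN2 fell by 0.33 and 0.17, though UBQLN2 missed the threshold without shNC replicate 2 or 3 or shERCC6L replicate 1 or 2, and the polyubiquitin gene UBB, at 0.01, did not pass. NFE2L1 is the transcription factor that raises proteasome genes when proteasome activity is low. It read 1253, 1208 and 1245 in shNC and 1061, 1045 and 1041 in shERCC6L. It fell by 0.23 ± 0.03 (limma adjusted p = 0.00063), with no overlap between the groups. Of 8 genes of its axis 4 rose and 1 fell (50% and 12.5%). All of these but BACH1 and DDI2 belong to the brighter genes, of which 32.8% rose and 19.6% fell. The NFE2L1 partner genes MAFF and MAFG rose by 0.49 and 0.30 and SYVN1, the ligase that degrades NFE2L1, by 0.26. With probe sets averaged MAFF was at 0.322 and SYVN1 at 0.107. NGLY1 and DDI2, which release its active form, were at 0.02 and -0.03 and did not pass. These are transcript levels, and NFE2L1 is controlled largely as a protein.

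Other multi-subunit complexes were counted for comparison. Of 10 genes of the COP9 signalosome, whose subunits resemble those of the 19S lid, 7 were higher and 1 lower, with a median of 0.149. COPS8 rose by 0.50 ± 0.04, COPS5 by 0.30 and COPS7A by 0.22, and COPS4 fell by 0.21. Of 8 genes of the CCT chaperonin 6 were higher and 0 lower, with a median of 0.142, among them CCT2 and CCT3 at 0.36 and 0.29, CCT6A at 0.24 and CCT5 at 0.13. With probe sets averaged, CCT5 was at -0.018, and it missed the threshold without shNC replicate 1 or 3 or shERCC6L replicate 3, as did CCT6A without shNC replicate 1 or 3. The shares higher and lower were 70% and 10% for the COP9 signalosome and 75% and 0% for the chaperonin. All genes of both lists belong to the brighter genes, of which 32.8% rose and 19.6% fell. In both the share that rose was above the proteasome's 43.2%. The proteasome's shares were not tested against these.

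**Figure D5:**
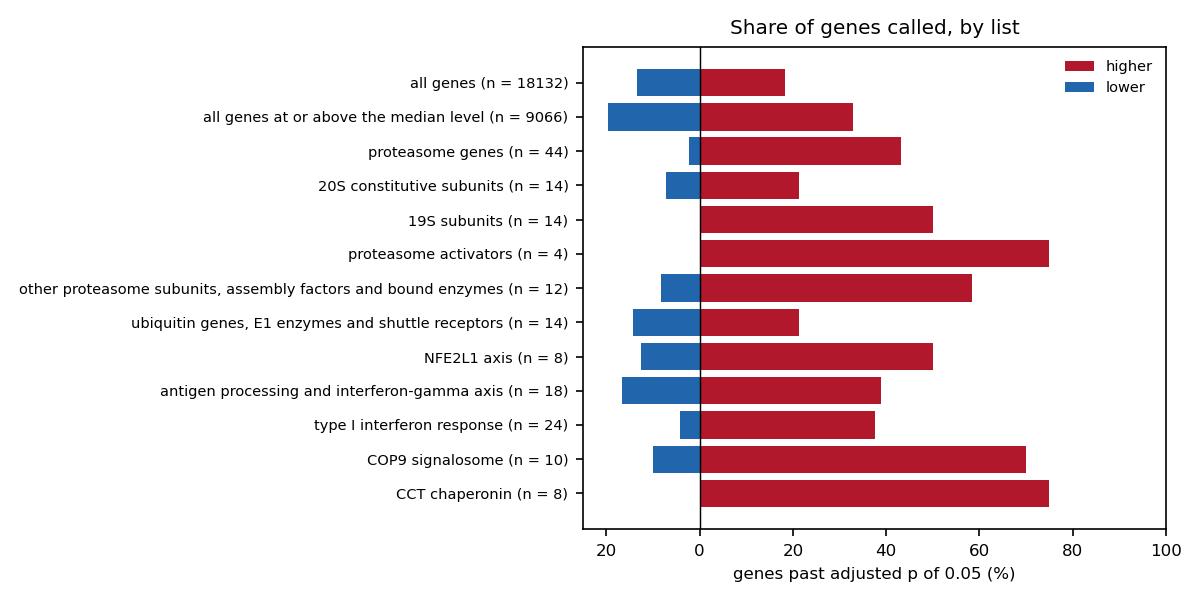
Share of genes past an adjusted p of 0.05, lower to the left and higher to the right of 0, in all genes, genes whose mean is at least the median gene's, the proteasome genes and some of their groups, and other lists (n is the number of genes measured). The proteasome genes stand at 43.2% higher and 2.27% lower, against 18.2% and 13.4% of all genes.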

How the data were processed

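Per the labels' protocols, biotin-labelled cRNA was made from 6 ug of Trizol-extracted total RNA for single-channel Affymetrix arrays. The authors deposited probe set intensities on a linear scale, made with Affymetrix Expression Console per the submitters' processing notes; its version and how it corrected, normalized and summarized the probes is not stated by them or by the labels. The arrays' medians were nearly equal, so the values were used as deposited. They carry no detection calls, and precision is limited by the number of arrays.

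Of 49395 probe sets, 102 were control probe sets; by GEO's platform annotation 44988 of the rest name 1 gene symbol, 1832 several and 2473 none. Intensities were taken as log2(signal + 16), which understates the change of dim genes, and each gene's probe set with the highest mean stood for it (18132 genes, no filter on dim genes). The test was limma's moderated one (lmFit, then eBayes; limma 3.58.1, R 4.3.3), 2-sided, on 4 residual degrees of freedom and a prior worth 4.95, with Benjamini-Hochberg adjustment over all genes. The script was tested on simulated data. Values are given for every array of the 10 members with the smallest p in each direction (the 1 fall included), the catalytic, inducible, thymic and testis subunits and PSME1, PSME2 and PSME4; other pathway lists are represented by their 4 smallest p, and genes named beyond these, PSMG4, PSMD1, PSMF1 and PSMA1 among them, were chosen after their values were seen. The members and lists were chosen with earlier results of these data known. Alternatives were quantile normalization, a block for the replicate number, centring on array medians, a filter at the median level, averaged probe sets, all probe sets singly, robust estimation with an intensity trend, pseudocounts of 1 and 64, and leaving out each array. Deviations of same-numbered arrays from their group means correlated at 0.24, -0.14 and -0.01 for replicates 1, 2 and 3. Same-numbered arrays were not treated as pairs. Positions and promoters are RefSeq's (GRCh38.p14); promoters were read with Python 3.11.15.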

Additional observations from a re-analysis of the deposited data

How the results depend on the processing

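The median of the proteasome genes kept its direction in all 15 alternatives, from 0.056 with quantile normalization to 0.103 without shERCC6L replicate 1. The count of members that fell was 2 in place of 1 with quantile normalization, with the dimmer genes left out, with averaged probe sets, with every probe set and with an intensity trend; PSMB8 was the gene added in all of these but the fit of every probe set, where it was a PSMC2 probe set. With every probe set counted, 49 of 108 passed, 47 higher and 2 lower, and over all genes 13052, 7647 and 5405 did, since a gene then enters more than once. With each array left out in turn, 16 to 19 members passed, 15 to 18 higher and 1 to 2 lower (2, with PSMB8, without shNC replicate 2), and 4694 to 5379 of all genes. With a replicate block 18 members were higher and 1 lower, and PSMD9 missed the threshold (limma adjusted p = 0.0505). Whether the labels' replicate numbers pair the arrays is not known. With probe sets averaged, PSMA1 and CCT5 reversed, to 0.304 and -0.018, and PSMA1 passed as higher (limma adjusted p = 3e-05). PSMC6, PSMD9 and PSME3 moved to 0.079, 0.256 and 0.158 with this averaging and stayed called. In the other lists HLA-F, UBE3C, UBXN1, UBA1, MAFF, SYVN1 and IFI44 then moved by at least 1.5 times, all towards 0, and of these UBA1 lost its call. A pseudocount of 1 ended the calls of PSMB10 and PSMD9 (adjusted p of 0.0582 and 0.0565). Signals at the background probes' level limit what can be read of PSMA8 and PSMB11.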
